A study of Mus musculus with 10 samples.

Results

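Brachyury (T), Eomes, Mixl1 and Goosecoid (Gsc) are transcription factor genes that switch on in the primitive streak, and their chromatin was read here in mouse embryonic stem cells with and without BAF250a. The members are the islands, intervals enriched in ChIP reads over input, that overlap 4 windows of the mouse build mm9. The windows were chromosome 17, 8610000 to 8650000 for T, chromosome 9, 118370000 to 118410000 for Eomes, chromosome 1, 182610000 to 182640000 for Mixl1, and chromosome 12, 105695000 to 105725000 for Gsc. They held 26 of the 84243 islands in the 4 lists, made up of 8 WT and 7 KO islands of H3K4me3 and 3 WT and 8 KO islands of H3K27me3. Each of the 26 lay wholly inside its window.

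BAF250a is encoded by Arid1a and is a subunit of the BAF (SWI/SNF) nucleosome remodelling complex. All cells were 129/C57BL/6 stem cells kept with LIF and 15% serum on a layer of embryonic fibroblasts, and both genotypes were treated from 4 hours after passaging. Cells labelled BAF250a Knockout (KO) had 1 µM 4-OH tamoxifen for 36 hours, and cells labelled WT had ethanol for the same time, so that drug and genotype cannot be told apart. The driver of the deletion, the number of clones, its completeness and any removal of the fibroblasts are not stated in the labels. The 10 samples of the series include a single H3K4me3 and a single H3K27me3 ChIP library of each genotype, each set against the input of that genotype. Without replicates no difference below could be compared with a replicate spread, and no p-value between genotypes was computed. Every comparison is between these libraries, and intervals are 95% intervals for read counting error alone.

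T and Eomes are T-box factors. T is required for posterior mesoderm and the notochord, and Eomes for definitive endoderm, for migration of early mesoderm and for the trophoblast. Mixl1 and Gsc carry paired-type homeodomains, Mixl1 acting in the mesendoderm of the streak and Gsc, a repressor, marking the organizer. Wnt and Nodal signals induce all of them when pluripotency ends. In stem cells such genes are nearly silent and are the textbook case of bivalent chromatin, where H3K4me3, a mark of promoters, lies with H3K27me3, which Polycomb repressive complex 2 deposits.

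The promoters of T, Eomes and Gsc are shown because H3K4me3 and Polycomb are both known to favour CpG-rich DNA. Each is the RefSeq promoter of build GRCm38.p6, 250 bases before to 50 after the start, written in the direction of transcription with CpG dinucleotides in capitals. T is at chr17:8434173-8434472 on the plus strand, Eomes at chr9:118477939-118478238 on the plus strand, and Gsc at chr12:104473187-104473486 on the minus strand. This build differs from that of the islands, and no position was carried from one to the other. The table matched 3 of the 4 genes, all but Mixl1.
T: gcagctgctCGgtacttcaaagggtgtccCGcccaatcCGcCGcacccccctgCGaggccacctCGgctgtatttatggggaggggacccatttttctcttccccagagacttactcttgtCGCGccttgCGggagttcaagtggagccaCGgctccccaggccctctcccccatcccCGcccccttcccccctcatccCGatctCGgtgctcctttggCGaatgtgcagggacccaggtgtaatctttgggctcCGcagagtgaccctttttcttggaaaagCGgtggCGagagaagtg
Eomes: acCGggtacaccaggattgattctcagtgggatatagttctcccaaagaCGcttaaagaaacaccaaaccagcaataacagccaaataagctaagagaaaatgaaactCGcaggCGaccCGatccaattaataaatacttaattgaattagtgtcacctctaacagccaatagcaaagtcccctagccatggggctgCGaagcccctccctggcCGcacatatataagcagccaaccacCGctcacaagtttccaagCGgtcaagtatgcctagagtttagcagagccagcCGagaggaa
Gsc: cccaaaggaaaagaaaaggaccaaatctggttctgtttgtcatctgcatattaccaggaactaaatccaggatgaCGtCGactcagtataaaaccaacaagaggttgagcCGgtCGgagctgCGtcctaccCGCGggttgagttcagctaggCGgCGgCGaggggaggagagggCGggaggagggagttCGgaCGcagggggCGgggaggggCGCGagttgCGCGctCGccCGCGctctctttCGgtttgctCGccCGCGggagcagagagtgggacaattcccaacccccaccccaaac

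These promoters were unlike in base composition. The Gsc promoter held 25 CpG in 300 bases, more than 81.6% of the 32851 promoters in the table, and its ratio of observed to expected CpG was 0.93. T held 17 CpG, more than 68.6% of promoters, at a ratio of 0.61. Eomes held 10 CpG, more than 56.5%, at the same ratio, and its GC content of 47.3% was below the median of 52.7%. All 3 lay above the median promoter, which held 7 CpG. Motifs were searched on both strands. The GC box GGGCGG matched at 2 places in T and 2 in Gsc and at none in Eomes, and 35.7% of all promoters held it. The TATA box TATAAA matched once in Gsc (13.6% of promoters), and the TCF/LEF motif CTTTGAA once in T (5.14%). Letters of CTTTGAT (3.73% of promoters), of the FOXH1 motif TGTGGATT (0.86%), of the T-box motif AGGTGTGA (1.28%) and of the SMAD motif GTCTAGAC (0.21%) were in none of these windows. T lacked TATAAA, Gsc lacked CTTTGAA, and Eomes lacked the exact letters of all the motifs searched. Variants were not searched, so the letters tatataa in the Eomes sequence were not counted as a TATA box.

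**Figure D1:**
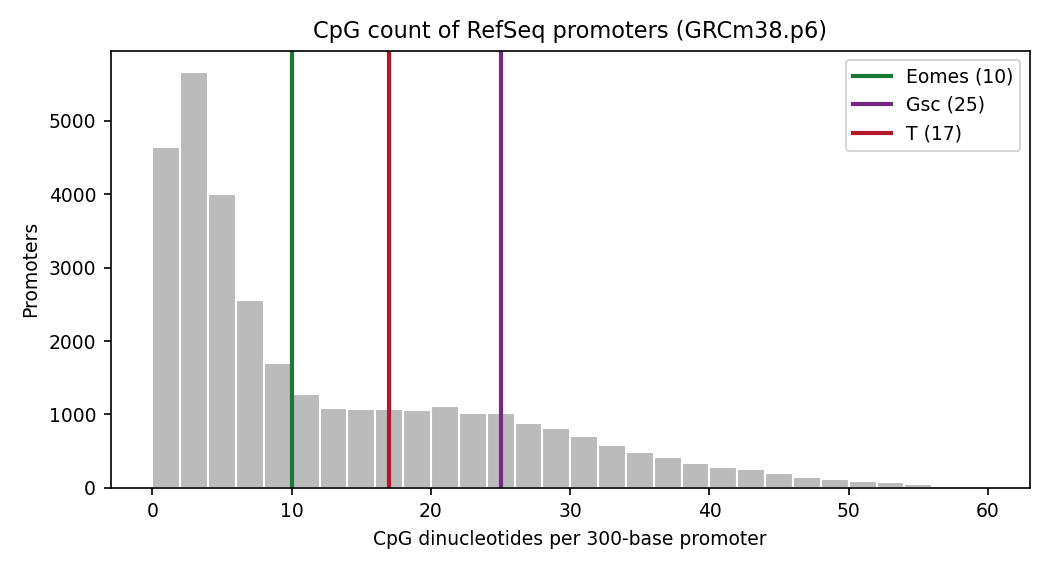
Number of promoters (y axis) by CpG dinucleotides per 300 bases (x axis) over 32851 RefSeq promoters, with vertical lines at Eomes (10), T (17) and Gsc (25). The 3 lines are spread over the upper part of the distribution, right of the median of 7.

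By island calls, T, Eomes and Gsc were bivalent in both genotypes, and Mixl1 carried H3K4me3 alone in both. A window was called bivalent when its 2 kinds of island overlapped by 1 bp or more within a genotype. That gave 3 of 4 windows in WT and 3 of 4 in KO. Of single H3K4me3 islands in the windows, 4 of 8 in WT and 5 of 7 in KO overlapped H3K27me3. Over the whole lists, 10.8% of WT H3K4me3 islands and 6.78% of KO ones overlapped H3K27me3, and of those bivalent in WT 60.1% met both marks again in KO. The WT count rested on weak H3K27me3 islands. With a fold over input of 2 or more required of both marks, 1 window remained bivalent in WT, that of Gsc, and 3 in KO. At T and Gsc the KO calls then rested on small H3K27me3 islands of 59 and 52 ChIP reads. The longer KO islands there, both at 1.79-fold, did not pass.

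**Figure D2:**
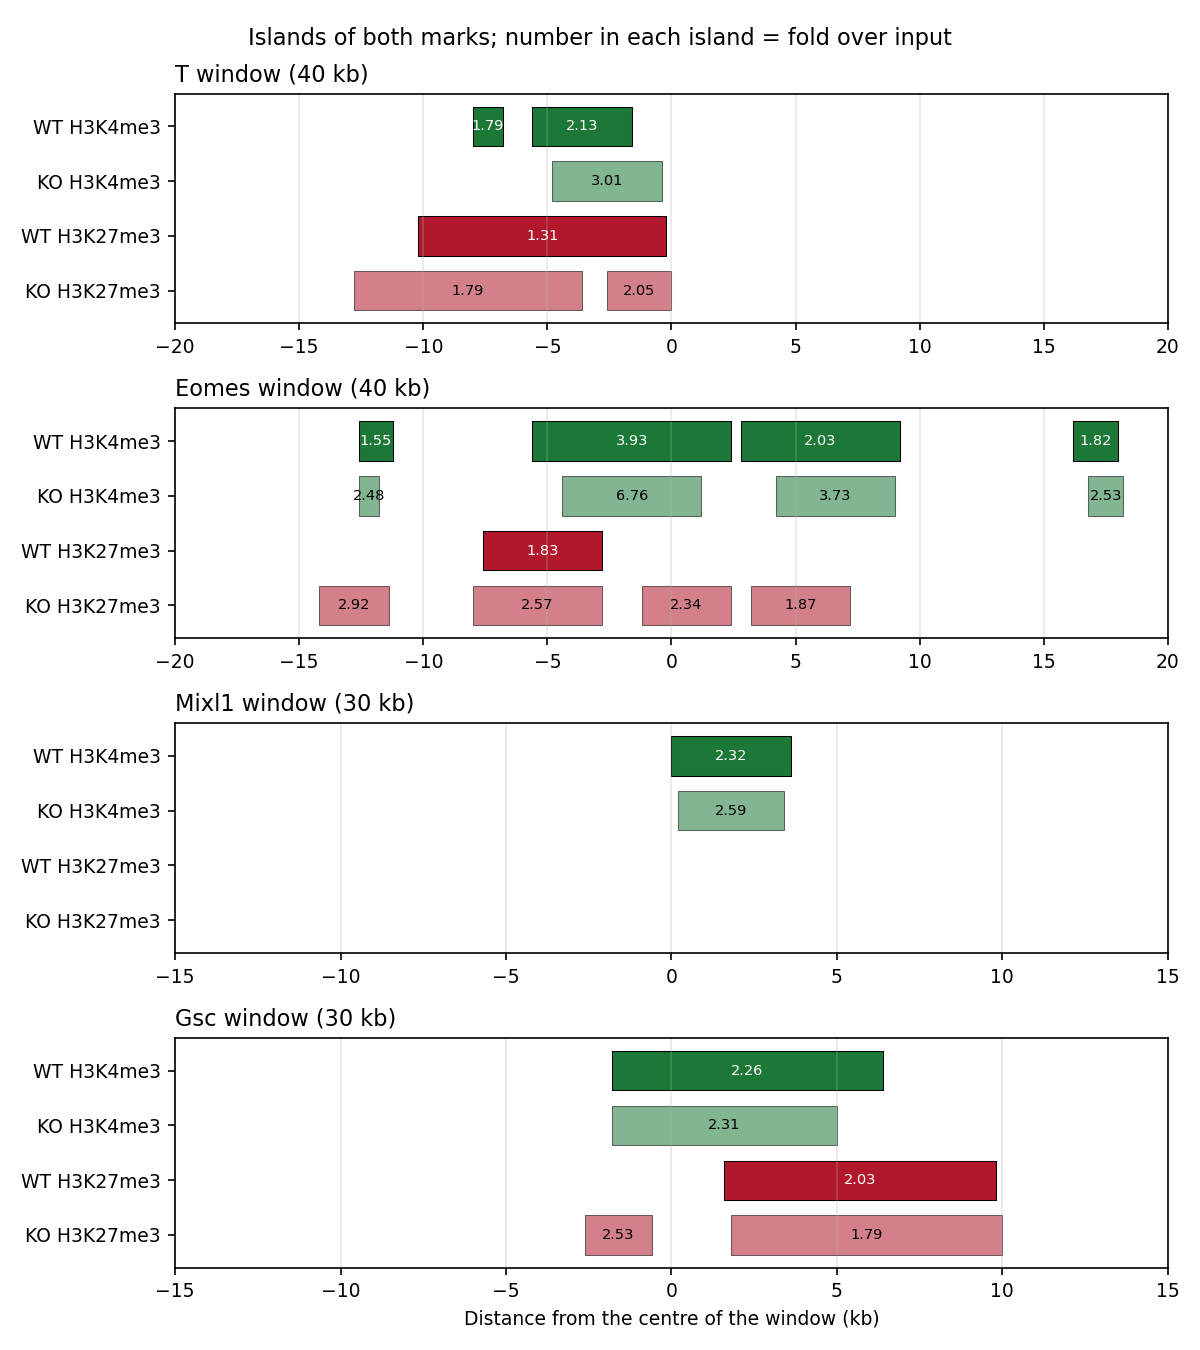
Islands of the 4 lists along each window, with distance from the window centre in kb on the x axis, 1 row per genotype and mark, and the deposited fold over input written in each island. T, Eomes and Gsc have overlapping green (H3K4me3) and red (H3K27me3) islands in both genotypes, the Eomes window has 1 H3K27me3 island in WT and 4 in KO, and the Mixl1 window has none.

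At T the marks coincided most fully in WT. WT had 2 H3K4me3 islands on chromosome 17, from 8622001 to 8623200 with 70 ChIP and 22 control reads (1.79-fold over input) and from 8624401 to 8628400 with 288 and 76 (2.13-fold). A single KO island ran from 8625201 to 8629600 with 247 ChIP and 61 control reads (3.01-fold). The smaller WT island had no KO partner, whereas 3.65% of all merged H3K4me3 regions were in WT alone. At the control density of the KO H3K27me3 island over that place, 27 reads would have passed the p-value limit of the KO list, and the WT fold of 1.79 would have given 34.5. The fold values and p-values of single islands are those deposited by the authors.

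H3K27me3 at T was long and weak. In WT 1 island of 10 kb, from 8619801 to 8629800, held 323 ChIP and 147 control reads. Its reads exceeded those of 93.5% of WT H3K27me3 islands, but its fold of 1.31 exceeded that of only 4.25%. In KO 2 islands, from 8617201 to 8626400 and from 8627401 to 8630000, held 202 and 59 ChIP reads with 110 and 28 control reads, at 1.79 and 2.05-fold. The WT island covered all 5.2 kb of the H3K4me3 islands. In KO 3.4 kb of 4.4 kb, or 77.3%, was covered, since the gap between the 2 H3K27me3 islands fell inside the H3K4me3 island. Of the length under both marks, 2200 bp was the same in both genotypes.

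Eomes had the most H3K4me3 of the 4 genes by summed island length and by fold over input, although the widest single H3K4me3 island of each genotype was at Gsc. Its window held 4 H3K4me3 islands in each genotype, and each WT island had 1 KO partner. The leading WT island ran from 118384401 to 118392400 on chromosome 9 with 930 ChIP and 133 control reads (3.93-fold), and its KO partner from 118385601 to 118391200 with 591 and 65 (6.76-fold). Beside it, 118392801 to 118399200 held 535 ChIP and 148 control reads in WT (2.03-fold), and 118394201 to 118399000 held 311 and 62 in KO (3.73-fold). A small island to the left had 77 ChIP and 28 control reads in WT and 30 and 9 in KO. The rightmost had 55 and 17 in WT and 51 and 15 in KO. Unscaled ChIP reads were lower in the KO library at all 4 places, and the fold was higher at all 4. A higher fold in KO was the rule for H3K4me3, found in 91.5% of all regions with islands in both genotypes. The leading island exceeded 90.2% of the WT list and 81.7% of the KO list in reads, and 64.6% and 80.3% in fold.

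H3K27me3 spread over more of the Eomes window in KO. WT had a single island, from 118382401 to 118387200, with 212 ChIP and 69 control reads (1.83-fold). KO had 4 islands. The partner of the WT island, from 118382001 to 118387200, held 124 ChIP and 47 control reads (2.57-fold). The other 3 had no WT partner. They were 118375801 to 118378600 with 69 ChIP and 23 control reads (2.92-fold), 118388801 to 118392400 with 84 and 35 (2.34-fold), and 118393201 to 118397200 with 100 and 52 (1.87-fold). Called length was 4.8 kb in WT and 15.6 kb in KO, and the length under both marks 2.8 kb and 7.8 kb. Both marks thus covered 15.9% of the H3K4me3 length in WT and 61.9% in KO. Only 1600 bp under both marks was the same in both genotypes.

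ChIP reads per kb of H3K27me3 island at Eomes were lower in KO all the same, 44.2 in WT and 24.2 in KO, not scaled for depth. The KO H3K27me3 list holds 0.732 of the WT reads in regions shared by both. The lists count no reads outside islands, so the WT reads under the 3 KO islands are unknown. The 2 on the right lie wholly inside WT H3K4me3 islands, whose control density, taken as even along each, gives an estimate of their WT control reads. On that basis 118 and 177 H3K27me3 reads would have passed the p-value limit of the WT list, or 1.18 and 1.14-fold over input. The folds measured in KO would have given 235 and 291 reads. No such estimate was made for the leftmost, which lies mostly outside the WT H3K4me3 island it overlaps. Island calling also needs enriched windows to form an island first, and that step was not modelled.

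At Gsc the marks were offset, with H3K27me3 over the right part of H3K4me3 and beyond it. On chromosome 12, WT H3K4me3 ran from 105708201 to 105716400 with 535 ChIP and 133 control reads (2.26-fold). KO H3K4me3 began at the same base and ended at 105715000, with 332 and 107 reads (2.31-fold). WT H3K27me3 lay from 105711601 to 105719800 with 391 ChIP and 115 control reads (2.03-fold), and its KO partner from 105711801 to 105720000 with 213 and 116 (1.79-fold). Both were 8.2 kb long. A second, small KO island from 105707401 to 105709400, with 52 ChIP and 20 control reads (2.53-fold), sat over the left end of H3K4me3. Length under both marks was 4.8 kb in WT and 4.4 kb in KO, of which 3200 bp was common, and these made 58.5% and 64.7% of the H3K4me3 length.

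Mixl1 had 1 H3K4me3 island in each genotype and no H3K27me3. The WT island, from 182625001 to 182628600 on chromosome 1, held 248 ChIP and 60 control reads (2.32-fold), and the KO island, from 182625201 to 182628400, held 258 and 74 (2.59-fold). Unscaled H3K4me3 reads were lower in KO at the other 3 genes and not at Mixl1, whereas scaled reads, given below, were lower there too. The nearest H3K27me3 islands lay 721 kb to the left and 332 kb to the right of the window in WT, and 199 and 639 kb in KO. Over the H3K4me3 islands themselves, with their own control reads, 118 H3K27me3 reads in WT and 91 in KO would have passed the p-value limit. These are 1.17 and 1.20-fold over input, so a weaker enrichment would not be listed. For comparison, the WT list holds 250 H3K27me3 islands of the same 3.6 kb, the lowest at 1.18-fold. Their median was 85 reads, and that of the 369 KO islands of 3.2 kb was 60. Both medians are below the reads needed at Mixl1.

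**Figure D3:**
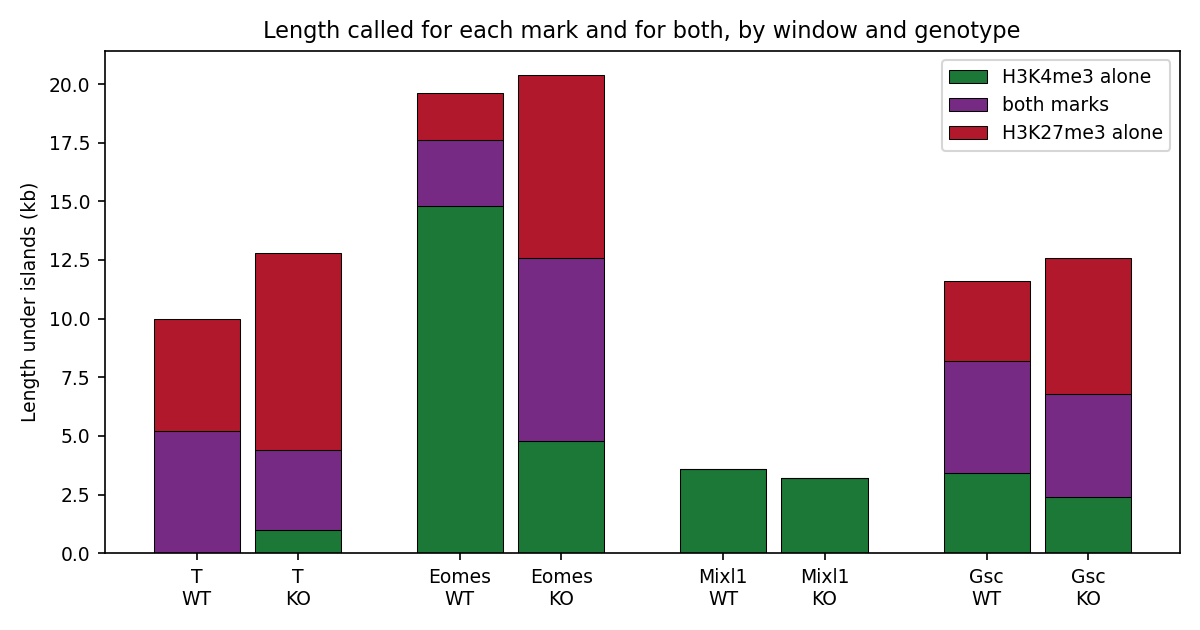
Length under islands in kb (y axis) in each window and genotype (x axis), split into H3K4me3 alone, both marks and H3K27me3 alone. Both marks cover 2.8 kb at Eomes in WT and 7.8 kb in KO, between 3.4 and 5.2 kb at T and Gsc, and none of the Mixl1 window.

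Summed over each window, H3K4me3 fold over input was higher in KO at T and Eomes, with intervals that left out equality, and had no clear direction at Mixl1 and Gsc. Fold over input was pooled as ChIP over control reads of all islands in a window, divided by the ChIP to input depth ratio of the list. At T it was 2.05 (1.64 to 2.57) in WT and 3.01 (2.27 to 3.98) in KO, a ratio of 1.47 (1.02 to 2.10). Without the WT island that had no KO partner, the log2 fold ratio at T was 0.50 (−0.05 to 1.04) and spanned 0. At Eomes the pooled fold was 2.75 (2.44 to 3.10) and 4.84 (4.08 to 5.74), a ratio of 1.76 (1.43 to 2.16). The Mixl1 values were 2.32 (1.75 to 3.08) and 2.59 (2.00 to 3.36), and the ratio of 1.12 (0.761 to 1.63) spanned 1. Gsc was closest to equal, at 2.26 (1.87 to 2.73) and 2.31 (1.85 to 2.87), with a ratio of 1.02 (0.764 to 1.36). The intervals of Mixl1 and Gsc do not show that the libraries were alike there, since they reach 1.63 and 1.36.

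Scaled ChIP reads in the islands were lower in KO. In the T window unscaled reads numbered 358 in WT and 247 in KO, in the Eomes window 1597 and 983, in the Mixl1 window 248 and 258, and in the Gsc window 535 and 332. Divided by the KO over WT total of 1.31 in all regions with islands in both genotypes (scaled reads), the KO over WT ratio was 0.525 (0.444 to 0.619) at T, 0.468 (0.432 to 0.507) at Eomes, 0.791 (0.662 to 0.946) at Mixl1 and 0.472 (0.410 to 0.542) at Gsc. The T value counts the WT island without a partner, and the shared T region alone had a log2 ratio of −0.62 (−0.87 to −0.37). Only reads inside islands are counted, and called length was shorter in KO in all 4 windows, at 0.846, 0.716, 0.889 and 0.829 of WT. Per kb of island and scaled in the same way, the log2 ratio was −0.40 at T, −0.32 at Eomes, 0.12 at Mixl1 and −0.52 at Gsc.

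Control density also differed between the genotypes, and not in 1 direction. Per kb of H3K4me3 island, control reads numbered 18.8 in WT and 13.9 in KO at T, 18.5 and 12.0 at Eomes, 16.7 and 23.1 at Mixl1, and 16.2 and 15.7 at Gsc. Over the whole H3K4me3 lists the values were 12.7 and 12.0. Control density was thus above the list average in all 4 windows in WT, and the KO over WT ratio was 0.736 at T, 0.647 at Eomes, 1.39 at Mixl1 and 0.970 at Gsc. Control reads are the divisor in the fold. In the same order the fold ratios were 1.47, 1.76, 1.12 and 1.02. The KO over WT ratios of unscaled ChIP reads per kb were 0.815, 0.860, 1.17 and 0.748. The part of input density in the fold differences was not tested.

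**Figure D4:**
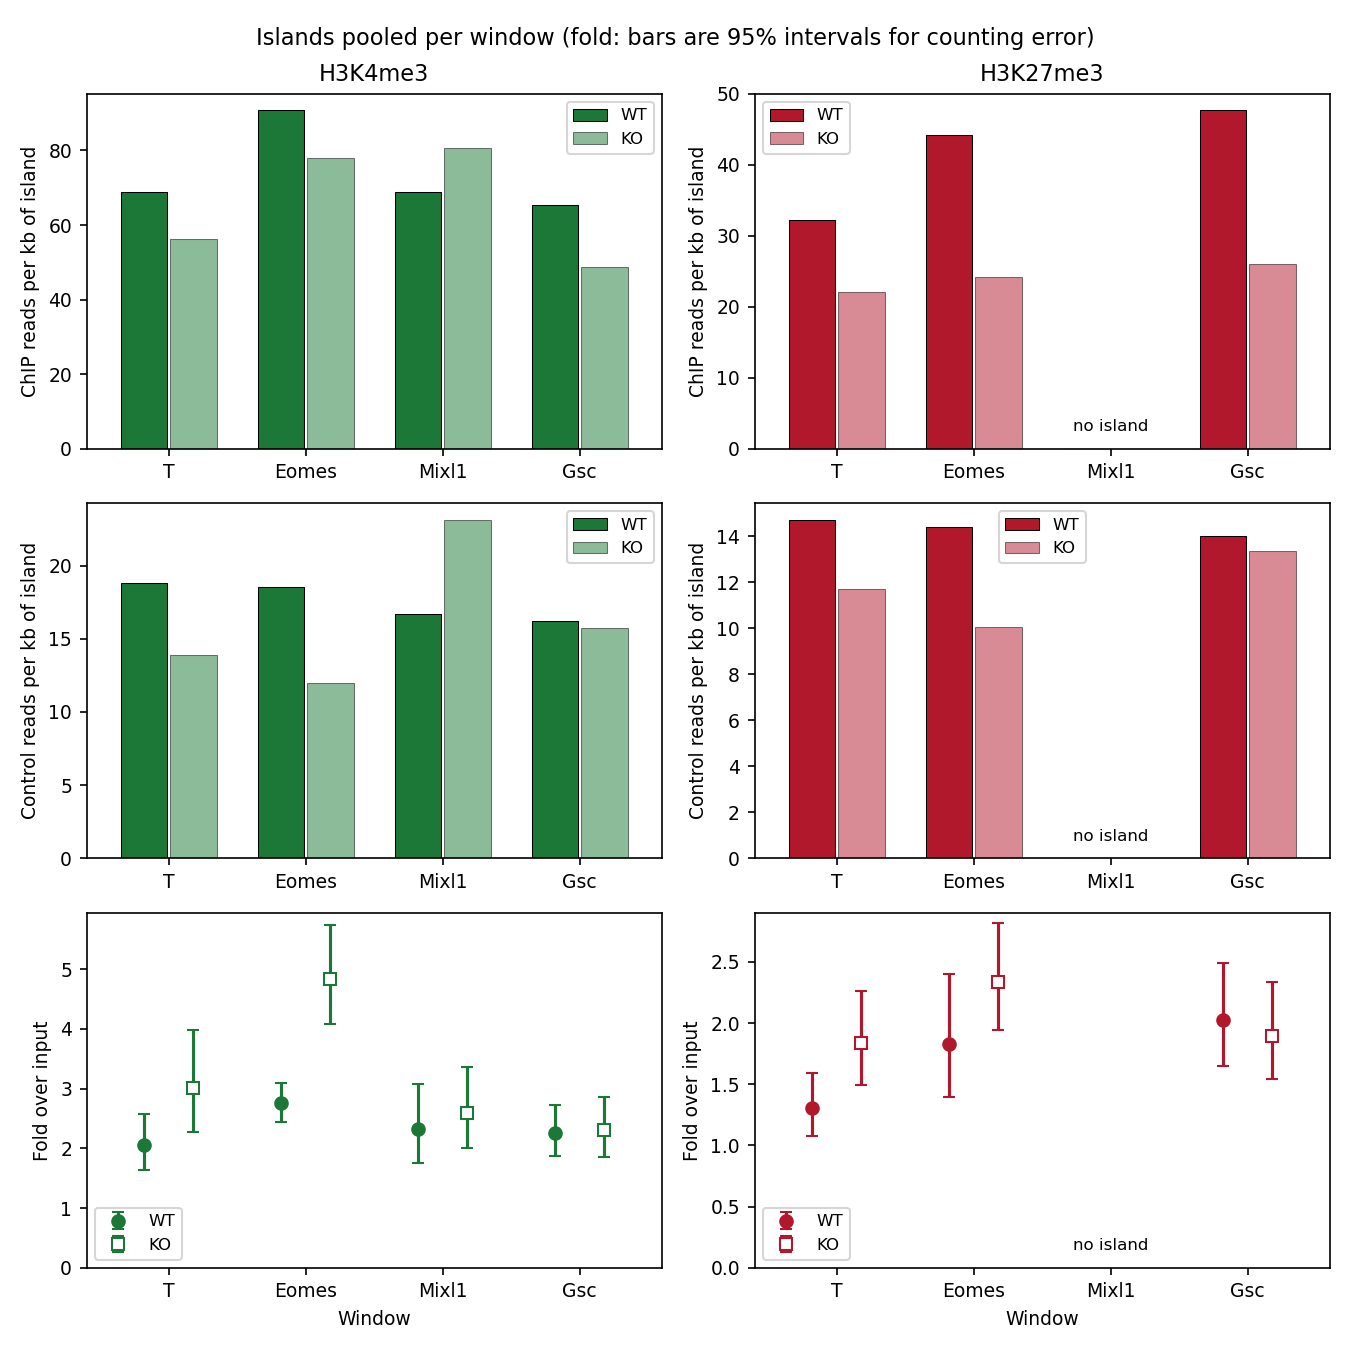
ChIP reads per kb of island (top), control reads per kb of island (middle) and pooled fold over input with 95% intervals for counting error (bottom) for each window, in WT and KO, H3K4me3 on the left and H3K27me3 on the right. Control density at Eomes is 18.5 in WT and 12.0 in KO for H3K4me3, and the intervals of the WT and KO fold are apart for H3K4me3 at Eomes and overlap in every other pair.

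Beside all regions, the H3K4me3 fold ratios of the members lay within the bulk, and most of their scaled read ratios lay in the lower tail. WT and KO islands were merged into regions, and the 4 windows held 7 regions with islands in both, 4 of them in the Eomes window, and 1 in WT alone. In 3 of the 7, all at Eomes, the fold was 1.5 times or more higher in KO, which held for 57.1% of the 23281 shared regions that had at least 20 reads per library. None of the 7 was 1.5 times or more lower, against 2.07% of all. By scaled reads 5 of the 7 were 1.5 times or more lower in KO, against 5.92% of all shared regions and 17.5% of the 1803 with H3K27me3 in both genotypes. No member region was that much higher, against 16.1%. The 5 regions were 3 at Eomes and 1 each at T and Gsc.

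The remaining 2 were the rightmost Eomes region and that of Mixl1. The median log2 ratio over the 7 regions was 0.50 by fold and −1.05 by scaled reads, and over all shared regions 0.66 and 0.04. Called length was shorter in KO in 6 of the 7, against 19.4% of all shared regions and 37.5% of those with H3K27me3 in both. The scaled read ratio of the T region was above that of 5.35% of shared regions, the Gsc region above 1.28% and the Mixl1 region above 14.8%. The 4 Eomes regions were above 0.172 to 7.89%. By fold ratio T stood above 35.5%, Gsc above 9.26%, Mixl1 above 13.9% and the Eomes regions above 33.5 to 68.1%. Shared regions with H3K27me3 in both genotypes had a lower median log2 ratio of scaled reads, −0.16. Against these, Gsc stood above 3.49% by scaled reads and Mixl1, itself without H3K27me3, above 34.6%. The T and Eomes windows, each summed over all its islands, stood above 5.77% and 3.33% of these. The same sums stood above 1.96% and 1.23% of all shared regions. The T sum counts the WT island without a KO partner, so its ranks are not those of the shared T region. That region alone was not ranked among regions with H3K27me3 in both genotypes. No H3K4me3 region in the windows was in KO alone, a class that made up 39.9% of all merged regions.

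**Figure D5:**
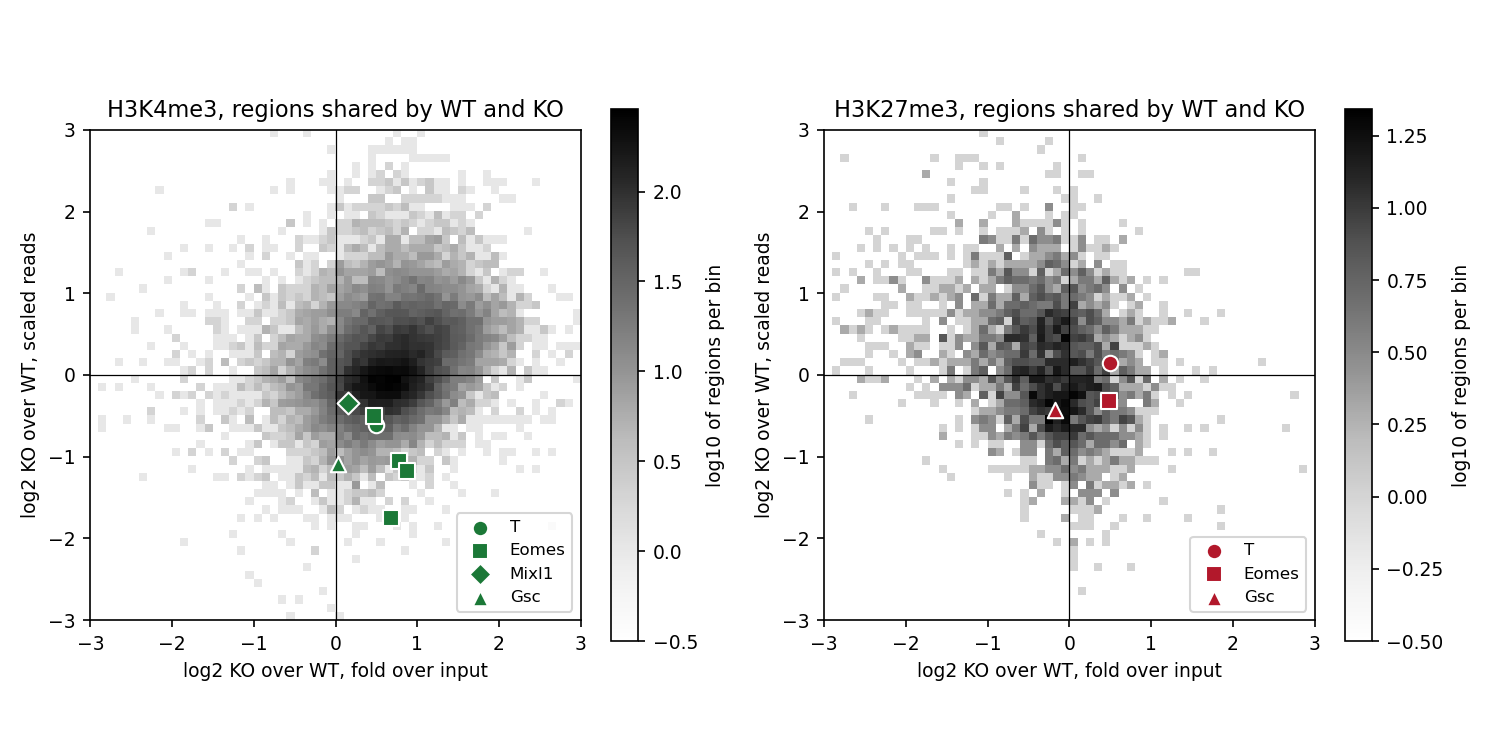
Log2 KO over WT ratio of fold over input (x axis) against that of scaled reads (y axis) for regions with islands in both genotypes, as a grey density (log10 of regions per bin), with the regions of the 4 windows as coloured symbols. All 7 H3K4me3 symbols lie right of 0 and below 0, and the 3 H3K27me3 symbols lie within 0.5 of 0 on both axes. Of all shared H3K4me3 regions, 91.5% lie right of 0, and 41.1% lie both right of 0 and below 0. Among those with H3K27me3 in both genotypes, 56.7% lie right of 0 and below 0.

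For H3K27me3 only the pooled fold ratio at T had an interval that left out equality, and called length differed most at Eomes. The intervals of the fold ratio at T and Eomes overlapped, so they set no order between these windows. Pooled fold over input at T was 1.31 (1.08 to 1.59) in WT and 1.84 (1.498 to 2.26) in KO, a ratio of 1.41 (1.06 to 1.87). At Eomes it was 1.83 (1.40 to 2.40) and 2.34 (1.94 to 2.82), and the ratio of 1.28 (0.918 to 1.77) spanned 1. At Gsc the values were 2.03 (1.65 to 2.50) and 1.90 (1.54 to 2.33), with a ratio of 0.936 (0.698 to 1.25). Reads in islands numbered 323 and 261 at T, 212 and 377 at Eomes, and 391 and 265 at Gsc, which scaled to 1.104 (0.934 to 1.30) at T, 2.43 at Eomes and 0.926 (0.789 to 1.09) at Gsc. The Eomes value sets 4 KO islands against 1 WT island, over 3.25 times the called length, and does not compare like places. In the 1 Eomes region called in both genotypes the log2 ratio of scaled reads was −0.32 (−0.65 to 0.003). Per kb of island over the whole window and scaled, the Eomes ratio was −0.38 on the log2 scale. T and Gsc had 1.18 and 1.24 times the WT length, and per kb their log2 ratios were −0.053 and −0.38.

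Merged H3K27me3 regions in the windows numbered 7, of which 3 were shared, 4 were in KO alone and none in WT alone. Over all merged regions 27.6% were in KO alone and 39.5% in WT alone. Of the 4, 3 lay in the Eomes window. None of the 3 shared regions passed 1.5-fold in either direction by either measure. Among all 3368 shared regions, 7.9% were past it higher and 24.7% lower by fold, and 27.2% higher and 16.2% lower by scaled reads. The log2 fold ratios of the 3 were 0.49 at T, 0.49 at Eomes and −0.18 at Gsc, and the median of all shared regions was −0.18. By fold ratio T stood above 89.6% of shared regions, Eomes above 89.4% and Gsc above 49.6%. By scaled reads the values were 52.5%, 28.0% and 23.5%. Control reads per kb of H3K27me3 island were lower in KO in all 3 windows, 14.7 and 11.7 at T, 14.4 and 10.1 at Eomes, and 14.0 and 13.3 at Gsc, whereas the whole lists had 8.33 in WT and 11.4 in KO. The part of this in the calls found in KO alone was not tested.

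The windows may also hold other genes. In the order of the RefSeq table, the coding neighbours of Mixl1 are Lin9 and Acbd3, those of Gsc are Serpina3n and Dicer1, T lies between an overlapping coding gene without a symbol of its own and Pde10a, and Eomes overlaps the noncoding gene Gm33408. Islands carry no gene names, and no annotation of mm9 was used here, so which start site an island covers, markers of stem cells and fibroblasts, and other genes of the Nodal and Wnt route to mesoderm were not analysed here.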

How the data were processed

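Per the labels, ChIP was done on formaldehyde-fixed nuclei cut with micrococcal nuclease and sonicated, with 50 bp reads. Per the submitters' processing notes, the authors used Bowtie, SICER 1.1 and build mm9. The deposited lists, 1 per ChIP library, used 200 bp windows, gaps of 200 bp (H3K4me3) or 600 bp (H3K27me3) and an FDR of 0.05, per the names the authors gave them. Read filters were not stated.

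The deposited values of an island are its ChIP and control read counts, a deposited p-value with its adjusted value, and a deposited fold (a ratio of ChIP to control reads after depth scaling). The fold equals ChIP over control reads divided by 1 constant per list, 1.78 and 1.35 for WT and KO H3K4me3 and 1.68 and 1.03 for WT and KO H3K27me3. The p-value equals a Poisson tail in 100% of islands (relative tolerance 0.001), which gave the fewest reads that would pass. Library totals are not in the lists. The H3K4me3 islands held 9565481 reads in WT and 13512350 in KO, and the H3K27me3 islands 1140878 and 839422.

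Starts and ends had 1 added. Intervals at the 95% level are normal on the log scale for folds and exact conditional binomial for reads. The ratio arithmetic was tested on simulated data. Samples were grouped by title; that of the KO H3K27me3 library reads H2K27me3, and its antibody entry H3K27me3. The nuclease libraries were not analysed here, and input was read only inside islands. The members and lists were chosen with earlier results of these data known. The genes named are the 4 members, with every island in their windows; the neighbours come from gene order alone. Alternatives covered scaling, islands, window edges, FDR, fold and overlap. Python 3.11.15, numpy 2.4.6, pandas 2.3.3, scipy 1.17.1 and matplotlib 3.10.9 were used.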

Additional observations from a re-analysis of the deposited data

How the results depend on the processing

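Values were had for 85 alternatives. Many of them kept the same islands and so repeat the reported value. Requiring islands wholly inside the window could change nothing, since every island lay inside. The tally is therefore no measure of robustness. In 62 a ratio stayed inside its interval, or a count of windows within 1.5 times, in 5 it moved further and in 18 its sign turned. The cause was not tested, save where islands were left out. Log2 KO over WT for H3K4me3 was 0.55 at T, 0.81 at Eomes, 0.16 at Mixl1 and 0.03 at Gsc by fold over input. In the same order it was −0.93, −1.09, −0.34 and −1.08 by reads scaled to shared regions, −1.03, −1.20, −0.44 and −1.19 by reads scaled to all islands, and −0.97, −1.14, −0.38 and −1.13 by reads scaled to the median region. Per kb and scaled it was −0.40, −0.32 and −0.52 at T, Eomes and Gsc, and kept its sign at Mixl1. For H3K27me3 the values by fold were 0.49 at T, 0.35 at Eomes and −0.10 at Gsc. Scaling to the median region gave 0.058 at T, and per kb values were −0.053 at T and −0.38 at Eomes. At Eomes, reads scaled to shared regions, all islands and the median region gave 1.28, 1.27 and 1.20, each a sum over 4 KO islands against 1 WT island. A minimum fold of 2 gave 0.32 at Gsc, from the small KO island alone, no value at T and Eomes, where no WT island passed, and 1 bivalent window in WT. Window edges, an adjusted p of 1e-05 and the overlap required changed no sign and no count of bivalent windows. Neither did keeping islands with a partner in the other genotype, for the ratios, an alternative chosen after the data were seen.

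No paired analysis was possible because each mark has 1 library per genotype. Most single regions had no clear direction by fold. The interval of the log2 fold ratio spanned 0 in 5 of 7 shared H3K4me3 regions and 2 of 3 shared H3K27me3 regions. At T, the H3K4me3 interval reached below 0 with 1 island, partnered islands or a fold of 2 (−0.046 to 1.04), and with the wider window (−0.013 to 0.963).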

Other observations

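Just outside the Eomes window, on chromosome 9 from 118414601, a further H3K4me3 island of 5.8 kb in WT and 5.4 kb in KO held 610 ChIP reads with 74 control reads (4.63-fold) and 652 with 59 (8.21-fold). Its scaled read ratio of KO over WT was 0.813 (0.727 to 0.909). Lower scaled reads with a higher fold in KO were also seen in the 4 Eomes pairs inside the window, and in 41.1% of all shared H3K4me3 regions. No H3K27me3 island lay within 10 kb of that window. Near T, a KO H3K4me3 island of 1 kb from 8601201 to 8602200 held 41 ChIP and 14 control reads, and a WT H3K27me3 island from 8659001 to 8663200 held 84 and 40. Neither had a counterpart in the other genotype within 10 kb outside the window.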
